A study of Homo sapiens with 2 samples.

Results

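Metallothioneins are small cysteine-rich proteins that bind zinc, copper and cadmium. The 6 genes described here, MT2A, MT1E, MT1X, MT1F, MT1G and MT1M, lie in a cluster on chromosome 16, with other metallothionein genes between them. They are 6 of the 33694 genes in the count matrix. They were selected on their symbols, with their levels in these same cells already known, so every level, ratio and count of members below is a description and carries no test. The cells come from C1, an epithelial derivative of HMLER, a human mammary epithelial line transformed in the laboratory with telomerase, SV40 early-region proteins and oncogenic RAS. C1 was gene-edited into a control line (C1-sgControl), a line edited in EED, a core subunit of Polycomb repressive complex 2 (C1-sgEED), and a line edited in KMT2D, a histone methyltransferase that acts at enhancers (C1-sgKMT2D). The series describes both knock-outs as giving epithelial-to-mesenchymal plasticity, and the question is how this gene family was expressed in each line and in its epithelial and mesenchymal cells. All 3 lines share the C1 background and the same medium, which held hydrocortisone at 1 µg/ml, insulin at 10 µg/ml and EGF at 10 ng/ml. Each line is 1 culture, stained with 1 hashtag antibody and pooled into 1 droplet library. The library titles speak of mixed clones, but the labels do not say whether an edited line is 1 clone or a pool of clones.

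In most tissues metallothioneins buffer free zinc and take up excess copper and cadmium through clusters of cysteine thiolates. Zinc activates the transcription factor MTF1, which binds metal response elements upstream of the metallothionein genes, and glucocorticoids and oxidative stress are also known inducers of MT2A. The medium of all 3 lines contained a glucocorticoid, and no culture without it was compared here. These genes are unrelated to the mitochondrial genes whose symbols begin with MT-.

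The coding sequences are shown because the members differ little from each other, which bears on how well reads can be told apart. In GENCODE 29 (GRCh38) each member has 3 exons and a coding sequence of 183 bases for 61 codons, of which 20 encode cysteine. MT2A (ENSG00000125148) spans chr16:56608199-56609497 on the plus strand, MT1E (ENSG00000169715) spans chr16:56625475-56627112 on the plus strand, and MT1M (ENSG00000205364) spans chr16:56632233-56633986 on the plus strand. MT1F (ENSG00000198417) spans chr16:56657694-56660698 on the plus strand, MT1G (ENSG00000125144) spans chr16:56666731-56668065 on the minus strand, and MT1X (ENSG00000187193) spans chr16:56682424-56684196 on the plus strand, 74.2 kb from the start of MT2A. The coding sequences of the 4 most abundant members follow, 5′ to 3′, with the cysteine codons in capitals.
MT2A: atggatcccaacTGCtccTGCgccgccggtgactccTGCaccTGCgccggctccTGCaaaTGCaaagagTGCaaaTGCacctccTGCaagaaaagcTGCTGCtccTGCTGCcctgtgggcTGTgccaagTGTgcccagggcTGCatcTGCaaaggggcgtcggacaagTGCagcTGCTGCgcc
MT1E: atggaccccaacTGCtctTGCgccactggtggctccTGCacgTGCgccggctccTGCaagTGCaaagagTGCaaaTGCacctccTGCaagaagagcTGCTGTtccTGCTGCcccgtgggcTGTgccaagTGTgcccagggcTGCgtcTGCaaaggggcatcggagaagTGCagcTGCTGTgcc
MT1X: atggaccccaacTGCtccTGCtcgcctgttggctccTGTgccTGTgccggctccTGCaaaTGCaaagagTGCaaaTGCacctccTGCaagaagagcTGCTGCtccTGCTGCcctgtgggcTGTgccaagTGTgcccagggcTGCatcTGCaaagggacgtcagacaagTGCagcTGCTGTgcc
MT1F: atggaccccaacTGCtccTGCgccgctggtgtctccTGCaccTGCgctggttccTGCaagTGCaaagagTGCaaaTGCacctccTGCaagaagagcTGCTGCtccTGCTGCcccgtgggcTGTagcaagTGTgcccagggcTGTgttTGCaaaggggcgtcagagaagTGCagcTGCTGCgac
The capitals stand at the same 20 codons in these sequences and in MT1G and MT1M, and identity to MT2A over the coding bases was 92.3% for MT1E, 92.3% for MT1X, 91.3% for MT1F, 95.1% for MT1G and 89.6% for MT1M. The library reads the 3′ end of a transcript, and in the last 300 bases the share of 50-base windows found unchanged in another family transcript was 14.3% for MT2A, 1.99% for MT1E, 0% for MT1X, 9.16% for MT1F, 8.76% for MT1G and 19.1% for MT1M. These windows are from the longest protein-coding transcript of each gene. For MT1E, MT1X and MT1G it is not the transcript whose coding sequence was used above. MT1X is among the genes that share windows with MT2A, MT1F, MT1G and MT1M, so its 0% holds for that transcript alone. Reads that fit 2 copies equally cannot be assigned, so the low values of MT1F, MT1G and MT1M, each of which shares windows with a more abundant member, are uncertain, the ratios of MT1F below included.

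Upstream sequence was searched for the core of the metal response element, as TGCACNC and TGCGCNC on either strand, in the 250 bases before the RefSeq start (GRCh38.p14). Among the members this covered MT2A, with 7 matches, and MT1X, with 4. MT1H, with 12 to 20 UMIs per line in these cells, had 8 matches, and the scarce MT1B and MT4 had 3 each, so the number of matches did not follow the level of the gene. Over the same length, 24.8% of 35116 RefSeq promoters held 1 match or more, 0.37% held 4 or more and 0.0513% held 6 or more. A match is a run of letters, not a shown binding site, and the windows of MT2A and MT1X are rich in G and C (73.2% and 70.0%). The RefSeq starts lie downstream of the GENCODE starts given above, and the searched window of MT2A (chr16:56608334-56608583) lies within the first exon of its GENCODE model.

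The library held 10336 barcodes, all distinct. After removal of barcodes with under 500 genes or over 20% mitochondrial unique molecular identifiers (UMIs) and of 827 barcodes positive for several hashtags, 1720 cells carried the control hashtag, 2338 the C1-sgEED hashtag and 2348 the C1-sgKMT2D hashtag, with 9927122, 10256770 and 13957344 UMIs. One more hashtag, to which the labels give no line, is no group in the comparisons below. Each cell was placed by the share of VIM (vimentin, an intermediate filament protein of mesenchymal cells) in its UMIs of VIM plus KRT17 (a basal keratin): above 0.5 is called VIM-rich and below 0.5 KRT17-rich, which is a range of a 2-gene share and not a cell type. KRT17-rich cells numbered 1619, 1100 and 1154 in C1-sgControl, C1-sgEED and C1-sgKMT2D, and VIM-rich cells 67, 1192 and 1143, with 59, 73 and 138 cells within 0.05 of the bound. Their summed epithelial markers (20 genes, all detected) stood at 10204 to 13189 CPM (UMI counts scaled to a common total for every group) in the 3 KRT17-rich groups, against 1595 CPM in VIM-rich cells of C1-sgEED and 2548 CPM in those of C1-sgKMT2D. The 67 VIM-rich control cells still had 8675 CPM of these markers, so they are shown but not compared. In them the family sum was 17180 CPM, with MT2A at 15658 CPM and MT1E at 1248 CPM. The 3′ counts of the edited genes do not check the edits: EED stood at 13.6 CPM in the control and 13.4 CPM in C1-sgEED, and KMT2D at 4.63 CPM in the control and 5.01 CPM in C1-sgKMT2D. Immune, endothelial and neural marker lists summed to between 3.15 and 35.6 CPM in any group of cells.

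The family was among the most abundant transcripts of every line, and MT2A made up most of it. The 6 members summed to 12736 CPM in the control line, with a 95% exact Poisson interval of 12666 to 12807, which is 1.27% of all its UMIs. C1-sgEED had 18059 CPM (17976 to 18141), and C1-sgKMT2D had 12749 CPM (12690 to 12809). These intervals, like all those below, cover counting error only, and no replicate culture shows how far a second culture of a line would differ. MT2A ranked 6th of all genes in the control, 2nd in C1-sgEED, 7th in C1-sgKMT2D, and held 89.6%, 87.0% and 84.2% of the family's UMIs. Counts from 3′ tags do not scale with transcript length, but reads shared between copies are lost. The members' CPM are set side by side with that limit.

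MT2A, the main stress- and metal-inducible isoform, stood at 11413, 15717 and 10732 CPM in the control, C1-sgEED and C1-sgKMT2D. MT1E stood at 1117, 2077 and 1643 CPM in the same order, and MT1X at 159, 223 and 341 CPM. MT1X thus had its highest level in the line where MT2A had its lowest. MT1F stood at 34.4, 22.2 and 24.9 CPM in the 3 lines. MT1G, at 11.1, 16.7 and 7.95 CPM, followed the order of MT2A. MT1M was counted in 15, 24 and 16 UMIs, or 1.51, 2.34 and 1.15 CPM with overlapping intervals, so its order across lines was not detectable at this depth. In every line the order of counted UMIs was MT2A, MT1E, MT1X, MT1F, MT1G, MT1M, and the counting intervals of neighbours in that order did not overlap. These intervals leave out the loss of shared reads, so the order of MT1F, MT1G and MT1M stays uncertain.

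**Figure D1:**
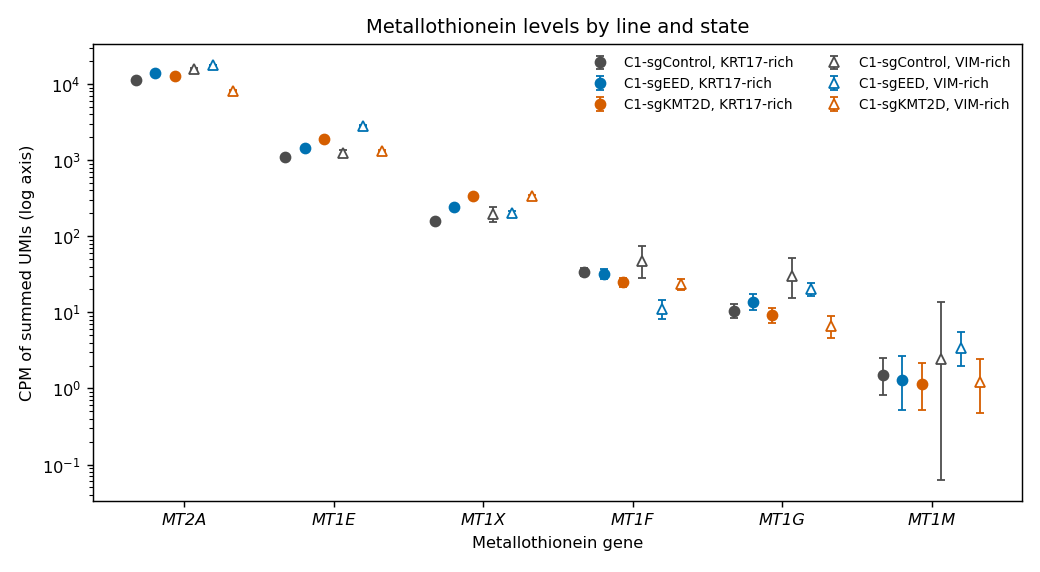
Level of each member in CPM (log axis) for the 3 lines, in KRT17-rich cells (filled circles) and VIM-rich cells (open triangles), with exact 95% Poisson intervals as bars. MT2A spans 8189 to 17806 CPM and MT1M stays near 1 to 3 CPM; the 2 triangles of the edited lines lie on opposite sides of their circles for MT2A and MT1E.

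C1-sgEED cells carried more MT2A, MT1E, MT1X and MT1G than control cells, and less MT1F. Over whole lines the family sum was 1.42 times the control (95% counting interval 1.41 to 1.43), with MT2A at 1.38 times, MT1E at 1.86 times (1.82 to 1.90), MT1X at 1.40 times and MT1G at 1.51 times (1.18 to 1.93). MT1F was at 0.645 of the control (0.543 to 0.765), and the interval of MT1M spanned 1 (0.780 to 3.17). Of the 4 members with at least 20 CPM in either line, 1 (MT1E) was at least 1.5-fold higher and 1 (MT1F) at least 1.5-fold lower, where 10.6% of all 5508 genes at that level were higher and 8.28% lower. The median log2 ratio was 0.47 over the 6 members, 0.11 over all these genes and 0.02 over the 217 of them on chromosome 16. Whole lines differ in their mix of cells, and among KRT17-rich cells the difference was smaller. There the sum was 12503 CPM in the control and 15673 CPM in C1-sgEED, a ratio of 1.25, with MT2A at 11184 and 13931 CPM, MT1E at 1115 and 1453 CPM, and MT1F at 33.8 and 31.8 CPM. Of the 4 members, 1 (MT1X, 158 and 243 CPM, ratio 1.53 with an interval of 1.42 to 1.65) was at least 1.5-fold higher and 0 were lower, beside 6.77% and 4.79% of all genes. In cells with at least 5000 UMIs the log2 ratio of the sum in KRT17-rich cells was 0.20 instead of 0.33, and in cells with 0 or 1 UMIs of cell-cycle G2/M genes it was 0.18.

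In C1-sgKMT2D the summed level equalled that of the control, but its make-up differed. The ratio of sums was 1.00 (0.994 to 1.01), with MT2A at 0.940 of the control, MT1E at 1.47 times, MT1X at 2.14 times (2.02 to 2.27), MT1F at 0.722, MT1G at 0.718 and MT1M at 0.759 (an interval that spans 1). Of the 4 members with at least 20 CPM, 1 (MT1X) was at least 1.5-fold higher and 0 were lower, beside 7.34% and 13.8% of all 5343 genes. Among KRT17-rich cells the sum was 14900 CPM against 12503 CPM in the control, a ratio of 1.19. MT2A stood at 12630 CPM against 11184 CPM, MT1E at 1892 CPM against 1115 CPM (ratio 1.70, 1.66 to 1.74) and MT1X at 343 CPM against 158 CPM (ratio 2.16, 2.03 to 2.31). MT1F was at 24.8 CPM against 33.8 CPM, a ratio of 0.733 (0.611 to 0.879). Of the 4 members, 2 (MT1E and MT1X) were at least 1.5-fold higher and 0 lower, beside 6.03% and 12.5% of all 5276 genes.

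Against C1-sgEED, the C1-sgKMT2D line as a whole had 0.706 of the family sum, 0.683 of MT2A, 0.791 of MT1E and 0.477 of MT1G, but 1.53 times the MT1X. Of 4 members, 1 (MT1X) was at least 1.5-fold higher and 0 lower, beside 3.23% and 12.1% of all 5354 genes. The 3 comparisons of lines share cells with each other and are not independent.

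Most genes of chromosome 16 were lower in C1-sgKMT2D than in the control, while the family sum was level. Of the 205 chromosome 16 genes with at least 20 CPM, 198 had a lower level in C1-sgKMT2D than in the control, with a median log2 ratio of -0.70, and 63.4% were at least 1.5-fold lower against 13.8% of all genes. Near the cluster the median was nearer to 0: -0.81 at 40 to 60 Mb before the start of MT2A, -0.34 within 5 Mb after it and -0.69 at 20 to 40 Mb after it. Of the 10 nearest genes with at least 10 CPM in a line, 5 on each side, 9 had a ratio below 1 in C1-sgKMT2D over the control, from 0.402 (LPCAT2, a lysophospholipid acyltransferase) to 0.894 (NUDT21, an RNA cleavage factor subunit), and HERPUD1, an endoplasmic reticulum stress gene, had 1.10. In C1-sgEED over the control the same 10 genes ran from 0.767 to 1.41. Relative to the median of chromosome 16 instead of the UMI total, the log2 ratio of the family sum was 0.70 instead of 0.00 for C1-sgKMT2D over the control, 0.93 instead of 0.25 in KRT17-rich cells, and 0.18 instead of -0.50 for C1-sgKMT2D over C1-sgEED, which turns its direction. The part of this chromosome-wide difference in the members' levels was not tested.

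**Figure D2:**
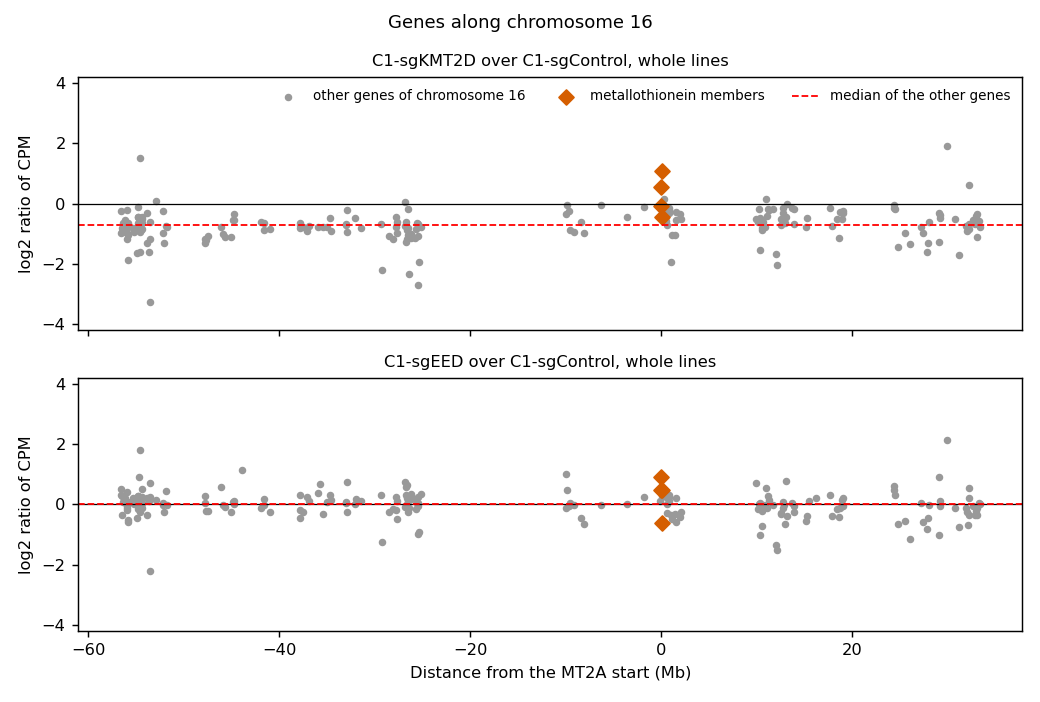
Log2 ratio of chromosome 16 genes with at least 20 CPM, by distance in Mb from the start of MT2A, for C1-sgKMT2D over C1-sgControl (top) and C1-sgEED over C1-sgControl (bottom); diamonds are the 4 members that reach 20 CPM and the dashed red line is the median of the other genes. In the top panel the dashed line lies near -0.70 and the diamonds lie above it; in the bottom panel the line lies near 0.02.

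The family differed in opposite directions between VIM-rich and KRT17-rich cells of the 2 edited lines. In C1-sgEED the sum was 15673 CPM in KRT17-rich and 20859 CPM in VIM-rich cells, a ratio of 1.33 (1.32 to 1.34). In C1-sgKMT2D it was 14900 CPM in KRT17-rich and 9871 CPM in VIM-rich cells, a ratio of 0.662 (0.656 to 0.669). The difference between these 2 ratios has no test, since each line is 1 sample.

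Within C1-sgEED, MT2A was at 13931 CPM in KRT17-rich and 17806 CPM in VIM-rich cells, a ratio of 1.28, and MT1E at 1453 and 2819 CPM, a ratio of 1.94 (1.89 to 1.99). MT1X was at 243 and 199 CPM, a ratio of 0.821 (0.754 to 0.893). MT1F had the lowest ratio of the 6 members, with 31.8 CPM (172 UMIs) and 11.1 CPM (52 UMIs), a ratio of 0.349 (0.251 to 0.478). MT1G stood at 13.7 and 20.01 CPM, and MT1M at 1.29 and 3.41 CPM on 7 and 16 UMIs (ratio 2.63, 1.02 to 7.57). Of the 5 members with at least 20 CPM, 1 (MT1E) was at least 1.5-fold higher and 1 (MT1F) at least 1.5-fold lower, beside 13.6% and 12.4% of all 5618 genes. MT1F UMIs per 1000 MT1E UMIs were 21.9 (18.7 to 25.4) in KRT17-rich and 3.93 (2.93 to 5.15) in VIM-rich cells, so these 2 genes of the cluster differed in opposite directions between the same cells.

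Within C1-sgKMT2D, MT2A was at 12630 CPM in KRT17-rich and 8189 CPM in VIM-rich cells, a ratio of 0.648 (0.641 to 0.656). MT1E was at 1892 and 1315 CPM, a ratio of 0.695. MT1X (343 and 336 CPM, ratio 0.981 with an interval of 0.925 to 1.04) and MT1F (24.8 and 23.5 CPM, ratio 0.947 with an interval of 0.756 to 1.18) did not differ beyond counting error. MT1G was at 9.19 and 6.51 CPM, with an interval of the ratio that spans 1 (0.466 to 1.06). Of the 4 members with at least 20 CPM, 0 were at least 1.5-fold higher and 1 (MT2A) at least 1.5-fold lower, beside 6.29% and 6.82% of all 5121 genes.

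VIM-rich cells of the 2 edited lines therefore stood further apart than their KRT17-rich cells did. C1-sgKMT2D VIM-rich cells had 0.473 (0.468 to 0.478) of the family sum of C1-sgEED VIM-rich cells, that is, 2.11 times less. MT2A was at 0.460, MT1E at 0.466 and MT1G at 0.325 (0.217 to 0.479). MT1X was 1.69 times higher (1.56 to 1.83) and MT1F 2.12 times higher (1.53 to 2.98). Of the 5 members with at least 20 CPM, 2 (MT1X and MT1F) were at least 1.5-fold higher and 3 (MT2A, MT1E and MT1G) at least 1.5-fold lower, beside 8.29% and 19.3% of all 5438 genes. MT1G reached 20 CPM in C1-sgEED alone (20.01 against 6.51 CPM), so it could enter this count only as lower. The median log2 ratio was -1.05 over the 6 members, -0.15 over all genes and -0.66 over chromosome 16. Relative to the chromosome 16 median the log2 ratio of the sum was -0.42 instead of -1.08. With the states bounded at VIM shares of 0.2 and 0.8 it was -1.51, and in cells with at least 5000 UMIs -0.84.

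**Figure D3:**
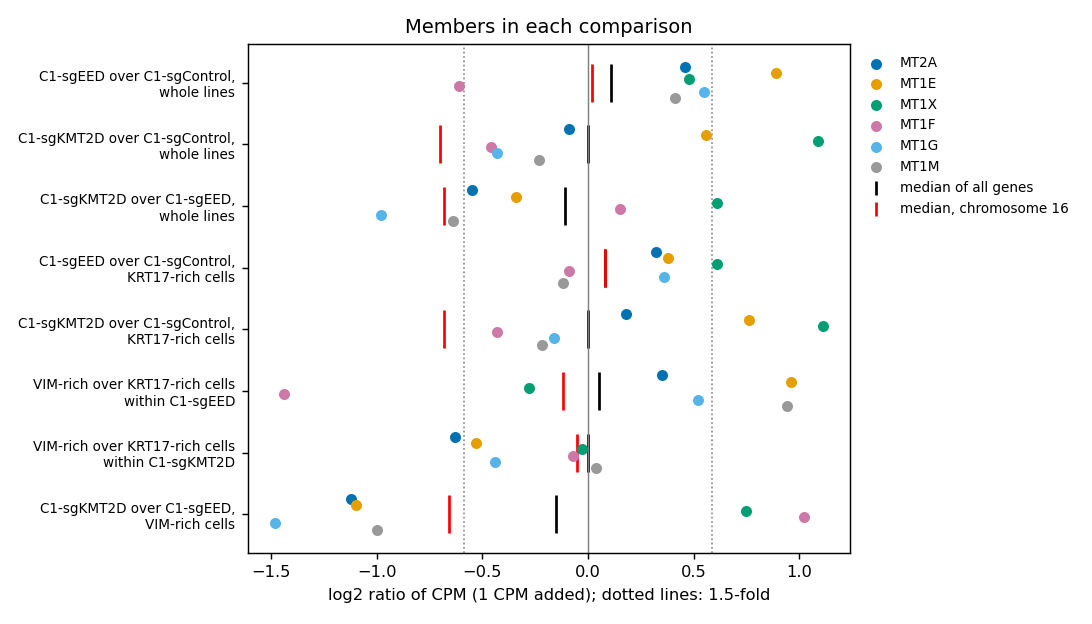
Log2 ratio (1 CPM pseudocount) of each member in the 8 comparisons of lines and states; black bars mark the median of all genes with at least 20 CPM, red bars the median of those on chromosome 16, and dotted lines 1.5-fold. MT2A and MT1E lie above 0 in VIM-rich over KRT17-rich cells of C1-sgEED (0.35 and 0.96) and below 0 in C1-sgKMT2D (-0.63 and -0.53).

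The make-up of the family showed the same split. MT1X UMIs per 1000 MT2A UMIs were 14.2, 17.4 and 27.1 in KRT17-rich cells of the control, C1-sgEED and C1-sgKMT2D, and 11.2 in C1-sgEED and 41.0 (39.2 to 42.9) in C1-sgKMT2D VIM-rich cells. MT1E UMIs per 1000 MT2A UMIs were 99.7, 104 and 150 in KRT17-rich cells and 158 and 161 in VIM-rich cells of C1-sgEED and C1-sgKMT2D. The ratio of MT1X to MT2A in summed UMIs therefore differed by more than 1.5-fold between the 2 VIM-rich groups. That of MT1E to MT2A did not, and ratios of single cells were not computed. The summed ratios within the cluster do not depend on the UMI total of the cells.

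Finer bins of the VIM share placed the turn in C1-sgKMT2D at the VIM end. In 5 bins of width 0.2 from KRT17 to VIM, the family sum in C1-sgEED was 14330, 17617, 18505, 18079 and 21489 CPM. In C1-sgKMT2D it was 13755, 15562, 14992, 13118 and 7564 CPM, so the first 4 bins lay within 1.5-fold of each other and the last, of 768 cells, stood below them. The control had 11124, 14749 and 17413 CPM in the first 3 bins, and 29 and 3 cells in the others. MT1E in C1-sgEED went from 1372 CPM in the first bin to 1864 CPM in the next to last and 3058 CPM in the last, and MT1F from 31.8 to 25.7 and 7.44 CPM. MT1X in C1-sgKMT2D stood at 354, 334, 322, 438 and 310 CPM, so it was highest in the next to last bin and lower again in the last.

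**Figure D4:**
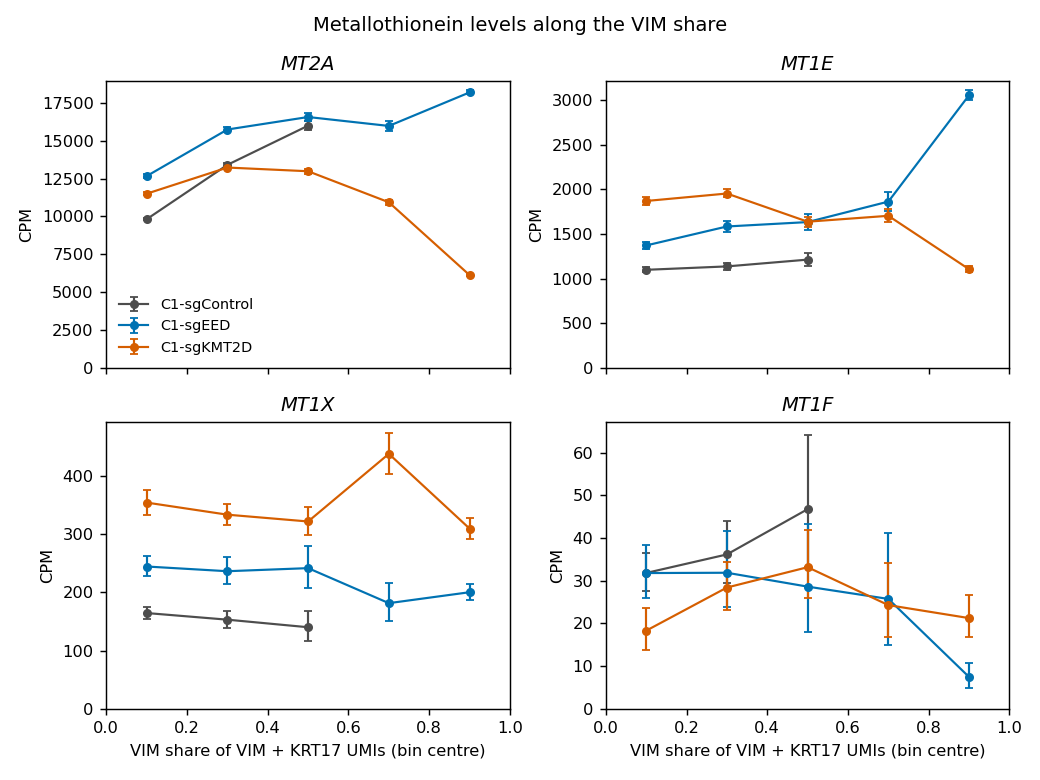
Level in CPM of MT2A, MT1E, MT1X and MT1F by share of VIM in the UMIs of VIM plus KRT17 (5 bins of width 0.2, bins with at least 50 cells) for the 3 lines, with exact 95% Poisson intervals. In the last bin MT2A reaches 18200 CPM in C1-sgEED but 6123 CPM in the C1-sgKMT2D line.

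Cells of 1 line differed widely in metallothionein. With every cell thinned to 2000 UMIs, the median number of family UMIs per KRT17-rich cell was 23, 31 and 27 in the 3 lines in the order above, and 41 and 15 in VIM-rich cells of C1-sgEED and C1-sgKMT2D. The 10th and 90th percentiles were 5 and 45 in the control, 17 and 71 in C1-sgEED VIM-rich cells, and 3 and 38 in C1-sgKMT2D VIM-rich cells, where the highest cell had 113. The coefficient of variation was 0.624, 0.594 and 0.635 in KRT17-rich cells of the control, C1-sgEED and C1-sgKMT2D, 0.487 in C1-sgEED VIM-rich and 0.844 in C1-sgKMT2D VIM-rich cells. VIM-rich cells of C1-sgEED were thus the most even in family UMIs of these 5 groups and those of C1-sgKMT2D the least even. The 10% of cells with the most family UMIs held 19.5% of them in the former and 28.8% in the latter. Thinning left out between 40 and 104 shallower cells in these groups. Without thinning the coefficients were higher, 0.681 and 1.17 in the 2 VIM-rich groups.

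The variance of MT2A over cells was 8.38 to 12.2 times its mean in these 5 groups, where counting error alone gives about 1 and the median gene of at least 50 CPM had about 1.04. By this measure MT2A ranked between 2nd and 7th of the genes in each group. A UMI of MT2A was found in at least 98.1% of the cells of every group, so presence did not separate cells at this depth. MT1E had a UMI in 75.02%, 82.0% and 88.1% of KRT17-rich cells in the order of lines above, and in 95.04% and 75.1% of VIM-rich cells of C1-sgEED and C1-sgKMT2D. MT1X was seen in 23.0%, 33.7% and 41.6% of KRT17-rich cells, and MT1F in 1.75% of C1-sgEED VIM-rich cells against 6.26% of its KRT17-rich cells. No cell type that lacks metallothionein is in the library, so the share that free RNA in the droplets would give was not measured and such UMIs are part of these shares.

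**Figure D5:**
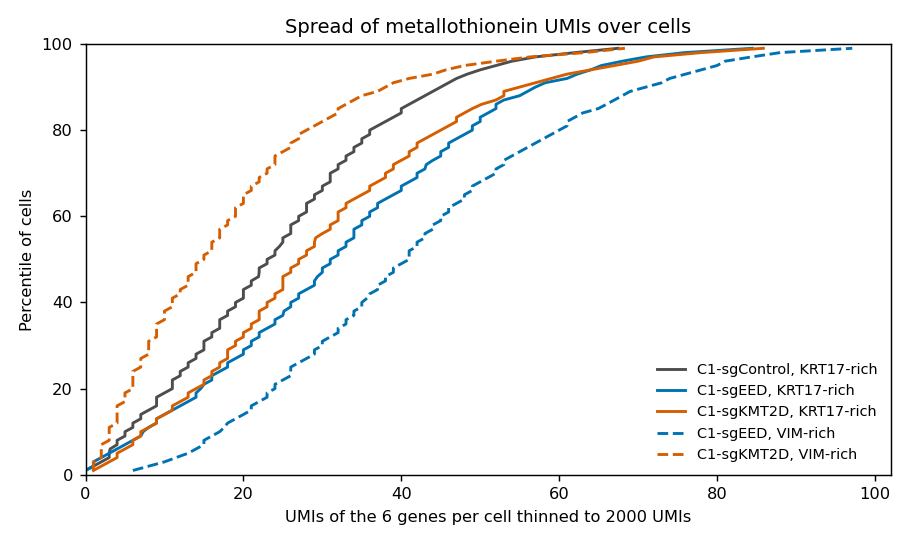
Family UMIs per cell, after thinning to 2000 UMIs, at each percentile of cells for 5 groups of cells. UMIs are on the horizontal axis and percentiles on the vertical axis. At the median the curve of C1-sgEED VIM-rich cells lies furthest right (41) and that of C1-sgKMT2D VIM-rich cells furthest left (15).

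Over thinned cells of 1 group, MT2A and MT1E counts had Pearson r of 0.403, 0.537 and 0.590 in KRT17-rich cells of the control (1553 cells), C1-sgEED (1054) and C1-sgKMT2D (1114), and 0.618 and 0.585 in VIM-rich cells of the 2 edited lines (1088 and 1090). MT2A with MT1X gave 0.122 to 0.275 over the same 5 groups, and MT1X is the sparser gene. These cells share a library and, within a group, a culture, and the values describe cells, not samples.

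Cells with more G2/M transcripts had more metallothionein in all 5 groups. Mean family UMIs per 2000 were 21.0 in KRT17-rich control cells with 0 or 1 G2/M UMIs and 34.9 in those with 5 or more. They were 25.7 and 39.1 in C1-sgEED KRT17-rich cells, 35.2 and 47.0 in C1-sgEED VIM-rich cells, 25.04 and 39.2 in C1-sgKMT2D KRT17-rich cells, and 14.4 and 26.3 in C1-sgKMT2D VIM-rich cells. The 20 G2/M genes summed to 1585, 2690 and 2549 CPM in KRT17-rich cells of the control, C1-sgEED and C1-sgKMT2D, and to 4170.5 and 3429 CPM in VIM-rich cells of the edited lines, so they differ between the groups compared above. Among cells with 0 or 1 G2/M UMIs, the log2 ratio of VIM-rich over KRT17-rich cells was 0.52 for C1-sgEED and -0.74 for C1-sgKMT2D, further from 0 than over all cells (0.41 and -0.59). From the lowest to the highest tercile of mitochondrial share, the mean went from 46.4 to 36.8 in VIM-rich cells of C1-sgEED, from 21.0 to 16.2 in those of C1-sgKMT2D and from 26.5 to 22.9 in KRT17-rich control cells. In KRT17-rich cells of the edited lines the middle tercile was highest, with 32.9, 33.4 and 30.7 in C1-sgEED and 30.9, 31.9 and 28.1 in C1-sgKMT2D. The part of either in the differences between lines was not tested.

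Of 2062 genes with at least 50 CPM in all 3 lines, the 5 most alike to the family sum over thinned KRT17-rich cells, ranked by the lowest r of the 3 lines, were HSP90AA1 (a chaperone, 0.300), PTTG1 (securin, 0.222), TUBA1B (an alpha-tubulin, 0.213), CDKN3 (a cell-cycle phosphatase, 0.195) and CCNB1 (cyclin B, 0.190). These are weak in sparse counts and describe the cells of 1 library. PTTG1 and CCNB1 also belong to the G2/M list used above. At the other end stood KRT16 (a stress keratin, -0.434 to -0.352), NEAT1 (a nuclear long RNA, -0.434 to -0.296) and KRT17 itself (-0.399 to -0.278 in KRT17-rich cells, -0.151 in C1-sgEED and 0.244 in C1-sgKMT2D VIM-rich cells). KRT17 is 1 of the 2 genes that place a cell. With states from the epithelial and mesenchymal marker lists, which hold neither of the 2 genes, the log2 ratio of VIM-rich over KRT17-rich cells was 0.32 in the C1-sgEED line and -0.97 in the C1-sgKMT2D line.

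Genes that sense or carry metal gave counts of 0 to 3 in either direction, some above and some below the share of all genes. The shares given beside list counts are those of all genes with at least 20 CPM, at least 1.5-fold higher and lower. Among 25 genes of zinc sensing and transport, 12 reached 10 CPM in the comparison of C1-sgEED with the control, and 0 were at least 1.5-fold higher or lower (median log2 ratio -0.03), beside 10.6% and 8.28%. In C1-sgKMT2D over the control 1 of 14 was higher and 3 lower, beside 7.34% and 13.8%. MTF1, the zinc sensor that drives these promoters, stood at 9.87, 8.09 and 11.5 CPM in the control, C1-sgEED and C1-sgKMT2D, with a ratio of 1.16 for C1-sgKMT2D over the control (0.897 to 1.51) and 1.42 for C1-sgKMT2D over C1-sgEED (1.08 to 1.87). In VIM-rich over KRT17-rich cells, 1 of 12 zinc genes was higher and 1 lower in C1-sgEED (beside 13.6% and 12.4%), and 2 of 13 were higher and 0 lower in C1-sgKMT2D (beside 6.29% and 6.82%). In VIM-rich cells of C1-sgKMT2D over C1-sgEED, where the family differed most, 2 of 13 zinc genes were higher and 3 lower, and 0 of 9 copper genes higher and 2 lower, beside 8.29% and 19.3%. The highest ratio between states was that of SLC39A8, a zinc importer, at 50.6 CPM in VIM-rich and 12.1 CPM in KRT17-rich cells of C1-sgKMT2D (ratio 4.19, 3.31 to 5.33), against 4.68 CPM in C1-sgEED VIM-rich cells. The importer SLC39A14 was at 36.5 and 18.9 CPM in C1-sgKMT2D (ratio 1.93). Both importers were higher in the cells where MT2A was lower, and they had the 2 highest ratios of the 13 zinc genes. The lowest ratios there were those of MTF1, SLC39A6 and SLC39A4, and a link to MT2A was not tested. Of 12 copper-handling genes, 10 reached 10 CPM in both comparisons of states, and 0 were higher and 1 lower in each; SOD1, a copper and zinc enzyme, had ratios of 1.01 and 1.00.

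Other inducers known for this family gave mixed counts. NR3C1, the glucocorticoid receptor, was level at 61.7, 62.7 and 60.8 CPM in the 3 lines. Of 16 glucocorticoid-response genes, 3 of 14 were higher and 5 lower in VIM-rich over KRT17-rich cells of C1-sgEED (median log2 ratio 0.08, beside 13.6% and 12.4% of all genes), and 5 of 13 higher and 0 lower in C1-sgKMT2D (0.25, beside 6.29% and 6.82%). FKBP5, a receptor co-chaperone induced by glucocorticoids, had ratios of 2.04 and 1.19, and TSC22D3 (GILZ) 1.26 and 1.86. In VIM-rich cells of C1-sgKMT2D over C1-sgEED, 7 of 13 glucocorticoid-response genes were higher and 0 lower, beside 8.29% and 19.3% of all genes. CEBPD, a transcription factor of the acute-phase response, had the highest ratio (391 against 134 CPM, 2.91), and SGK1, NR3C1 and FOXO3 had the lowest. MT2A had a ratio of 0.460 there. In the same comparison 8 of 15 genes of the dissociation stress list were higher and 1 lower (median log2 ratio 0.73). This list holds immediate-early and heat-shock genes, and DUSP1 is in it and in the glucocorticoid list. Its highest ratios were those of NR4A1, ZFP36 and JUN, and its lowest those of the heat-shock genes DNAJB1, HSPA8 and HSPA1A. Between states, 1 of 15 genes of the stress list was higher and 6 lower in C1-sgEED (-0.53), with HSPA8 and HSPA1A highest and NR4A1 lowest. In C1-sgKMT2D 5 were higher and 0 lower (0.49), with IER2 highest and DNAJB1 lowest. Their part in the family's levels was not tested.

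Genes of the oxidative and metal stress list were divided in both edited lines. In VIM-rich over KRT17-rich cells of C1-sgEED, 6 of 15 were at least 1.5-fold higher and 2 lower and 7 neither (median log2 ratio 0.40, against 0.05 over all genes, of which 13.6% were higher and 12.4% lower). HMOX1 (heme oxygenase) was at 14.1 against 3.88 CPM and reached the 10 CPM minimum in the VIM-rich cells alone, so it could count only as higher. GCLM (a subunit of the glutathione synthesis enzyme) was at 130 against 57.3 CPM and NQO1 at 283 against 135 CPM, while GCLC, the catalytic partner of GCLM, was at 12.1 against 27.5 CPM. In C1-sgKMT2D 3 of 14 were higher and 2 lower, beside 6.29% and 6.82%. The highest was FTH1, the ferritin heavy chain that stores iron, at 26456 against 10667 CPM (ratio 2.48), with FTL, the light chain, at 4144 against 2168 CPM. Ferritin and metallothionein thus differed in opposite directions in these cells. In VIM-rich cells of C1-sgKMT2D over C1-sgEED, GCLM had a ratio of 0.266, NQO1 0.344 and FTH1 2.78. Of 12 acute-phase and STAT3-response genes, 1 of 9 was higher and 4 lower in C1-sgEED VIM-rich cells and 7 of 10 higher and 0 lower in C1-sgKMT2D VIM-rich cells (the same shares of all genes apply), with SAA1 (serum amyloid A) at 227 against 87.9 CPM in the latter. All these lists were drawn up with earlier results of these cells known, so the counts are descriptions.

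The matrix held 6 more metallothionein genes, all scarce. MT1A stood at 7.45, 12.1 and 5.23 CPM and MT1B at 4.03, 7.21 and 5.80 CPM in the control, C1-sgEED and C1-sgKMT2D. In VIM-rich over KRT17-rich cells of C1-sgEED both were higher, MT1A at 17.0 against 7.76 CPM (ratio 2.19, 1.49 to 3.27) and MT1B at 10.0 against 4.803 CPM (ratio 2.08). MT1B UMIs per 1000 MT1E UMIs were 3.61, 3.47 and 3.53 in the 3 lines, nearly constant while MT1E itself ranged from 1117 to 2077 CPM, although 0 of 251 windows of 50 bases at the 3′ end of MT1B occur in another family transcript. MT1H (12, 13 and 20 UMIs), MT1HL1 (18, 28 and 25), MT3 (4, 5 and 1) and MT4 (0, 3 and 1) were scarce, and MT1HL1 had more UMIs than MT1M in each line. MT4 had its count of 0 in the control, where 3 counts, the limit that such a count allows, are 0.302 CPM.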

How the data were processed

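RNA and hashtag libraries of 1 pool of stained HMLER-derived C1 cells were analysed from the deposited matrix of UMI counts (10x 3′ version 2 chemistry), which the authors made with Cell Ranger 3.0.2 on GRCh38, per the file headers (version) and the submitters' processing notes (build); no step after counting is given in the sources used here. The members and every gene list were chosen with earlier results of these data known.

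Barcodes with at least 500 genes and at most 20% mitochondrial UMIs were kept (9193 of 10336). Each hashtag was called with a 2-component Gaussian mixture on log10(count + 1) (scikit-learn 1.9.0), and barcodes with several hashtags were removed as doublets. A doublet caller, Scrublet in scanpy 1.11.5, marked 0 of 9193 barcodes, including 0 of the 827 with several hashtags, and was not used; doublets within a line stay in. Cells needed at least 5 UMIs of VIM plus KRT17 to be placed. UMIs were summed per line and state and given as CPM of all gene UMIs. Ratios of CPM carry exact conditional binomial 95% intervals (scipy 1.17.1), levels exact Poisson intervals and shares of cells Clopper-Pearson intervals, all for counting error only. The ratio intervals were tested on simulated counts, and the other kinds were not. Log2 ratios used a pseudocount of 1 CPM. With 1 culture per line there is no replicate and no p-value. Backgrounds used genes with at least 20 CPM in either group and a 1.5-fold mark, and gene lists a minimum of 10 CPM. Cells were thinned to 2000 UMIs for values per cell (seed 1).

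Named were the 6 members, the other metallothionein genes, at most 3 genes at each end of a list, the 5 neighbours on each side and the 5 genes most alike. MTF1, NR3C1, SOD1, NQO1, TSC22D3 and SAA1 were named beside these after their values were seen. Median depth per cell was 3484 to 6733 UMIs over the groups of cells. Alternatives were other bounds of the states, stricter or no cell filters, deeper cells, totals without mitochondrial and ribosomal genes, the chromosome 16 median as reference, means over cells, omission of the top 1% of cells, and a 5 CPM pseudocount.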

Additional observations from a re-analysis of the deposited data

Results flagged for a closer look

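VIM-rich and KRT17-rich cells differed in opposite directions in the 2 edited lines. The log2 ratio of VIM-rich over KRT17-rich cells for the family sum was 0.41 in the C1-sgEED line but -0.59 in the C1-sgKMT2D line. For MT2A it was 0.35 and -0.63, and for MT1E 0.96 and -0.53. With 1 culture per line the difference between the lines was not tested.

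Cells of the second hashtag, to which the labels give no line, form no group of the report. Their family sum and their levels of MT2A, MT1E, MT1X and MT1G stand above those of the control. Their family sum was 25955 CPM, with MT2A at 23093 CPM, MT1E at 2430.4 CPM, MT1X at 387 CPM and MT1G at 15.9 CPM. The control had 12736, 11413, 1117, 159 and 11.1 CPM in the same order. MT1F was lower in cells of the second hashtag, with 301 of 11297540 UMIs against 342 of 9927122 in the control. MT1M had 26 and 15 UMIs, with overlapping counting intervals of its level.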

How the results depend on the processing

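The opposite directions of VIM-rich over KRT17-rich cells in C1-sgEED and C1-sgKMT2D held under every alternative run. Log2 ratios of the family sum that moved beyond counting error follow, with the main values first in the list: for VIM-rich over KRT17-rich cells 0.41 (C1-sgEED) and -0.59 (C1-sgKMT2D line), for C1-sgKMT2D over C1-sgEED in VIM-rich cells -1.08 and in whole lines -0.50, for C1-sgEED over the control 0.33 in KRT17-rich cells and 0.50 in whole lines, and for C1-sgKMT2D over the control 0.25 and 0.00. VIM-rich over KRT17-rich cells of C1-sgEED and C1-sgKMT2D gave 0.59 and -0.86 with VIM shares under 0.2 and over 0.8, 0.32 and -0.97 with states from marker lists, 0.38 and -0.55 with at least 1000 genes and at most 10% mitochondrial UMIs, 0.43 and -0.39 in cells of at least 5000 UMIs, 0.52 and -0.74 in cells with 0 or 1 G2/M UMIs (a setting chosen after seeing the data), 0.37 and -0.76 as means over cells, 0.53 and -0.54 relative to chromosome 16, and 0.37 and -0.55 on totals without mitochondrial and ribosomal genes. In that order of settings, C1-sgKMT2D over C1-sgEED in VIM-rich cells gave -1.51, -1.43, -1.03, -0.84, -1.18, -1.22, -0.42 and -0.93, and -1.11 without the top 1% of cells. In whole lines it gave -0.31 in deeper cells, -0.36 with few G2/M UMIs, -0.62 as means over cells, -0.40 on the smaller totals, -0.53 without the top 1% of cells, and 0.18 relative to chromosome 16, where MT1M also turned, from -0.64 to 0.05; the cause was not tested. C1-sgEED over the control in KRT17-rich cells gave, in the first order of 8 settings, 0.37, 0.37, 0.34, 0.20, 0.18, 0.40, 0.25 and 0.31, and 0.35 with no mitochondrial filter. In whole lines, from the stricter filter on, it gave 0.53, 0.34, 0.35, 0.58, 0.49 and 0.47, and 0.55 with no mitochondrial filter. C1-sgKMT2D over the control in KRT17-rich cells gave 0.31 and 0.22 with the other states, 0.18 in deeper cells, 0.32 as means over cells, 0.93 relative to chromosome 16, 0.30 on the smaller totals, 0.28 with no mitochondrial filter and 0.24 without the top 1% of cells. In whole lines it gave 0.02 under the stricter filter, 0.03 in deeper cells, -0.04 as means over cells, 0.70 relative to chromosome 16, 0.07 on the smaller totals, 0.04 with no mitochondrial filter and -0.02 without the top 1% of cells. The 5 CPM pseudocount moved none of the 8 sums beyond counting error.

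The coefficient of variation of family UMIs over cells, with thinning to 5000 UMIs, was 0.574 in the control (0.624 at 2000), 0.616 in C1-sgEED (0.594) and 0.616 in C1-sgKMT2D (0.635) KRT17-rich cells, and 0.466 (0.487) and 0.702 (0.844) in VIM-rich cells of the edited lines. Unthinned it was 0.783, 0.729, 0.789, 0.681 and 1.17 in that order, and 0.608 in the 67 VIM-rich control cells (0.454 thinned). Of 82 alternative values for each member, 81 kept their sign for MT1E, 80 for MT2A, 77 for MT1X and 75 for MT1F.

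The design limits every comparison: each line is 1 culture in 1 pooled library, so differences between lines and between cultures cannot be told apart. No paired analysis was possible because no group has a second sample. MT1G and MT1M rest on 7 to 171 UMIs per line or state compared, and depth limits their ratios. The doublet caller gave no usable call, so that setting has no value.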

Other observations

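The 1934 cells of the second hashtag had a family sum of 25390 CPM in their 575 KRT17-rich and 26181 CPM in their 1305 VIM-rich cells. MT2A was the most abundant gene of these cells and stood at 23138 and 22974 CPM, MT1F at 26.4 and 27.0 CPM and MT1G at 13.3 and 17.2 CPM. MT1E was at 1976 and 2690 CPM and MT1X at 235 and 471 CPM. In 5 bins of the VIM share the sum was 23112, 26219, 26510, 28145 and 25417 CPM. Since no label names these cells, they are given as values alone.

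Cells left out for a mitochondrial share over 20%, of which the control had 366, C1-sgEED 56 and C1-sgKMT2D 63, had a family sum of 6464, 8439.5 and 5794 CPM. With mitochondrial genes left out of the total, these were 10109, 12546 and 9206 CPM, against 13931, 19632 and 13908 CPM in the cells kept.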
